A study of Mus musculus with 2 samples.

Results

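The entries described here are the small RNAs that the deposited table lists under a piRNA name, taken as every row whose name begins with mmu_piR_. There were 160 such entries among 1374, and the other 1214 were miRNAs. The samples were exosomes, small membrane vesicles shed by cells, from 2 mouse cultures with 1 library each. One library came from mesenchymal stem cells (MSCs) of strain C57BL/6, multipotent stromal cells of the mesoderm, and the other from NIH3T3 cells, an immortalised fibroblast line of strain NIH Swiss that served as the control. Both cell types were kept for 72 hours on plastic without coating, in αMEM containing 5% fetal bovine serum, and neither carried a stated treatment. Serum holds vesicles and small RNAs of its own, and the sources used here do not say whether they were removed. The question put by the study was which miRNAs MSC exosomes hold in excess over NIH3T3 exosomes. With 1 library per group no test was possible, and differences are given by size only, with no replicate check.

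PIWI-interacting RNAs (piRNAs) are small RNAs bound by the PIWI branch of the Argonaute proteins and are best known from the germline, where they silence transposons. They are somewhat longer than miRNAs, are cut from long single-stranded precursors without Dicer, and are methylated at their last base. Collections of piRNA sequences were assembled from short reads of testis and ovary. Such collections are known to hold some sequences that also occur in abundant structural RNAs such as ribosomal and transfer RNA, so a piRNA name in a read count shows a sequence match and not binding to a PIWI protein.

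The 160 entries carried 82 different names, since the table gives a row to each listed position of a name. A single position was listed for 54 names, and 28 names had 2 to 20 positions and made up the other 106 entries. No 2 entries of a name held the same pair of counts. The listed spans ran from 19 to 32 bases with a median of 28, against a median of 22 for the miRNAs, and 74 of the 82 names spanned 24 to 32 bases. The entries lay on 19 chromosomes, 75 on the plus and 85 on the minus strand.

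The genome positions in the piRNA names were not taken as mm10, the build named in the submitters' processing notes. Of the 160 positions, 0 fell inside any of 6090 small RNA genes that GENCODE M21 annotates in mm10, whereas each of the 1206 miRNA entries that list a position lay in an annotated hairpin. That contrast alone does not show another build, since a piRNA need not lie in such a gene. A shift was seen for mmu_piR_000691, which is listed at 18 positions on the minus strand of chromosome 8. All 18 starts lay exactly 2886089 bases above the start of an annotated rRNA gene on that strand, and the next best distance matched 3 of them. The matched stretch of the annotation is the tandem array of 5S ribosomal RNA genes, whose product is a structural part of the large ribosomal subunit. It spans 45 gene copies with a median spacing of 1697 bases. Whether the entries of other names are shifted was not tested. Positions of piRNA entries are therefore given below as listed, without a build. No piRNA sequence was in the sources used here, and none is printed.

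In both libraries the piRNA entries held more counts than the miRNAs, and nearly all of these counts belonged to 1 name. The MSC library had 2500459 counts and the NIH3T3 library 1037147. Of these, 1472273 and 606140 were on piRNA entries, which was 58.9% of the MSC library (95% Wilson interval 58.8 to 58.9) and 58.4% of the NIH3T3 library (58.3 to 58.5). The intervals here and below cover counting error only, and reads copied by PCR would make them too narrow. Levels are given as CPM, each entry's count scaled so that all counts of its library sum to 1000000. Ratios are the log2 of MSC over NIH3T3 exosomes after adding 1 CPM to both, with an exact 95% interval for the ratio of the counts in brackets. The summed piRNA level was 588801 CPM in MSC and 584430 CPM in NIH3T3 exosomes, a 1.01-fold difference.

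The name mmu_piR_000620, of 30 bases, had 1353018 counts in the MSC and 569993 in the NIH3T3 library. This was 54.1% of all counts of the MSC library (54.0 to 54.2) and 55.0% of those of the NIH3T3 library (54.9 to 55.1), and 91.9% and 94.0% of the piRNA counts. Its level was nearly the same in both libraries, with a log2 ratio of -0.022. Its pair of entries were the 2 most abundant of the whole table in each library, above the most abundant miRNA entry, which stood at 68901 CPM in MSC and 64108 CPM in NIH3T3 exosomes. The entry listed on chromosome 3 (5843782 to 5843811, plus strand) had 881447 counts in the MSC and 311611 in the NIH3T3 library. The entry listed on chromosome 18 (54824345 to 54824374, minus strand) had 471571 and 258382. The chromosome 3 entry thus took 65.1% of the name's counts in the MSC library (65.1 to 65.2) and 54.7% in the NIH3T3 library (54.5 to 54.8). The log2 ratios of the pair had opposite signs, 0.23 for chromosome 3 (0.22 to 0.24) and -0.40 for chromosome 18 (-0.41 to -0.39), beyond counting error and well within 2-fold. How reads of 1 name were divided among its positions is not stated in the sources used here, and its part in these opposite signs was not tested.

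**Figure D1:**
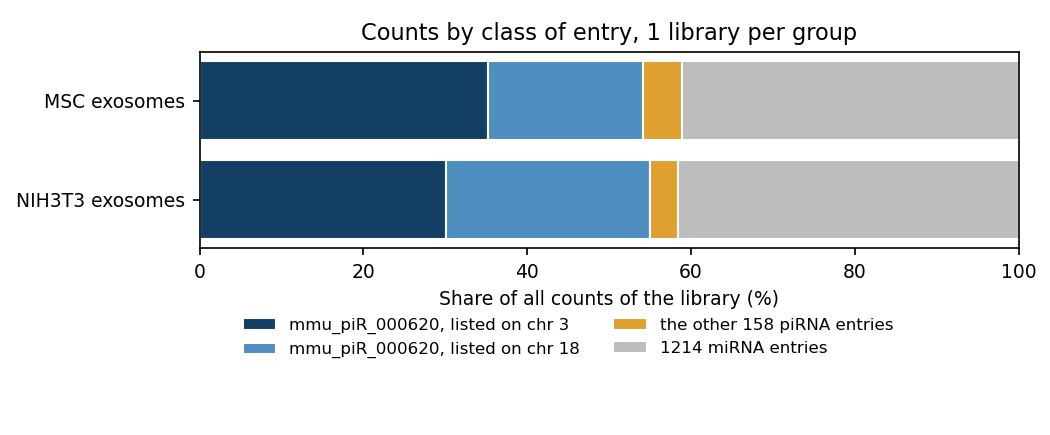
Share of all counts (%) held by the pair of mmu_piR_000620 entries, the other 158 piRNA entries and the 1214 miRNA entries, as a stacked bar for each of the 2 libraries. The piRNA entries together hold 58.9% in MSC and 58.4% in NIH3T3 exosomes, and the part outside mmu_piR_000620 is 4.77% and 3.49%.

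Without mmu_piR_000620 the remaining 158 entries had 119255 counts in the MSC and 36147 in the NIH3T3 library. They made up 4.77% of the MSC library (4.74 to 4.80) and 3.49% of the NIH3T3 library (3.45 to 3.52), a 1.37-fold higher level in MSC exosomes. These counts were also concentrated, since the 10 most abundant of them held 83.0% in the MSC and 85.5% in the NIH3T3 library. The next name was mmu_piR_022097, of 32 bases, with 58981 counts in MSC and 21224 in NIH3T3 exosomes and a log2 ratio of 0.20. It too was divided differently between its positions. The entry listed on chromosome 6 (86369527 to 86369558) had 45290 and 13593 counts, 76.8% of the name in MSC (76.4 to 77.1) and 64.0% in NIH3T3 exosomes (63.4 to 64.7). The entry listed on chromosome 17 (25602688 to 25602719) had 13691 and 7631 counts. Their log2 ratios were 0.47 and -0.43, again of opposite sign and within 2-fold. Without either of these names, 156 entries summed to 24105 CPM in MSC and 14388 CPM in NIH3T3 exosomes, 1.68-fold higher in MSC exosomes.

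Among the other abundant entries the libraries differed most for mmu_piR_027673, a name of 22 bases listed once, on chromosome 11 (106317081 to 106317102). It had 14146 counts in the MSC and 1315 in the NIH3T3 library, a 4.46-fold higher level in MSC exosomes (log2 ratio 2.16, 2.08 to 2.24). mmu_piR_004086, listed on chromosome 2, had 6746 and 1007 counts (1.47, 1.38 to 1.57). mmu_piR_002643, listed 77 bases before mmu_piR_000620 on chromosome 3, had 12664 and 5214 counts and was level between the libraries (0.01, -0.04 to 0.06). Of the remaining entries among the 10 most abundant of either library, mmu_piR_020492 (1238 against 171 counts, 1.58), mmu_piR_000639 (1113 against 185, 1.31) and mmu_piR_000619 (2190 against 436, 1.06) exceeded 2-fold in favour of MSC exosomes. mmu_piR_000616 on chromosome 2 (960 against 643, -0.69) and mmu_piR_000935 (562 against 434, -0.89) had negative ratios within 2-fold.

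Entry by entry, more piRNAs were higher in MSC than in NIH3T3 exosomes, and this depended on the level and on the scaling. An entry was compared if it reached 10 CPM in at least 1 library, which is 25 raw counts in the MSC and 10.4 in the NIH3T3 library, and all but 38 of the 160 did. Of those that did, 86 reached it in both libraries, 24 through MSC exosomes alone and 12 through NIH3T3 exosomes alone, so the difference of the last 2 groups is in part set by that limit. A difference of 2-fold or more was called, with 49 entries higher in the MSC library, 13 lower and 60 inside the bounds. As background, 30.5% of all 899 entries at that level were called higher and 27.4% lower, against 40.2% and 10.7% of the piRNA entries. The counting interval lay wholly beyond 2-fold for 17 of the 49 and 8 of the 13. The median log2 ratio was 0.73 for the piRNA entries, -0.05 for the miRNA entries and 0.15 for all. The piRNA median with the 5 entries at 0 in 1 library set to the bound that 3 counts allow was 0.73 as well, since none of these lies near it.

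Among the 86 entries at 10 CPM in both libraries, 28 were higher in MSC exosomes and 3 lower. The background at that level was 24.4% higher and 13.9% lower of 468 entries, against 32.6% and 3.49% of the piRNA entries, and the median log2 ratio was 0.55 for piRNA and 0.17 for miRNA entries. At 100 CPM in both libraries the medians were 0.47 over 25 piRNA entries and 0.49 over 119 miRNA entries. Of the 25, 8 were higher and 0 lower, against 36 and 14 of the 119. The share of piRNA entries called higher was thus near that of the miRNA entries at this level, while the share called lower was smaller. Scaling moved all ratios together. The deposited library factors lowered every log2 ratio by 0.22 before the added constant, which gave 38 piRNA entries higher and 21 lower. These were 30.6% and 16.9%, beside 25.8% and 32.8% of all entries. Scaling without the 10 most abundant entries of each library lowered the ratios by 0.36, which gave 27 higher and 23 lower. These were 22.1% and 18.9%, beside 22.9% and 37% of all entries, so the share called higher was near the background. Centring on the median of all compared entries, which lowered the ratios by 0.15, gave 40 higher and 19 lower, 32.8% and 15.6%, beside 27.7% and 30.4%.

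**Figure D2:**
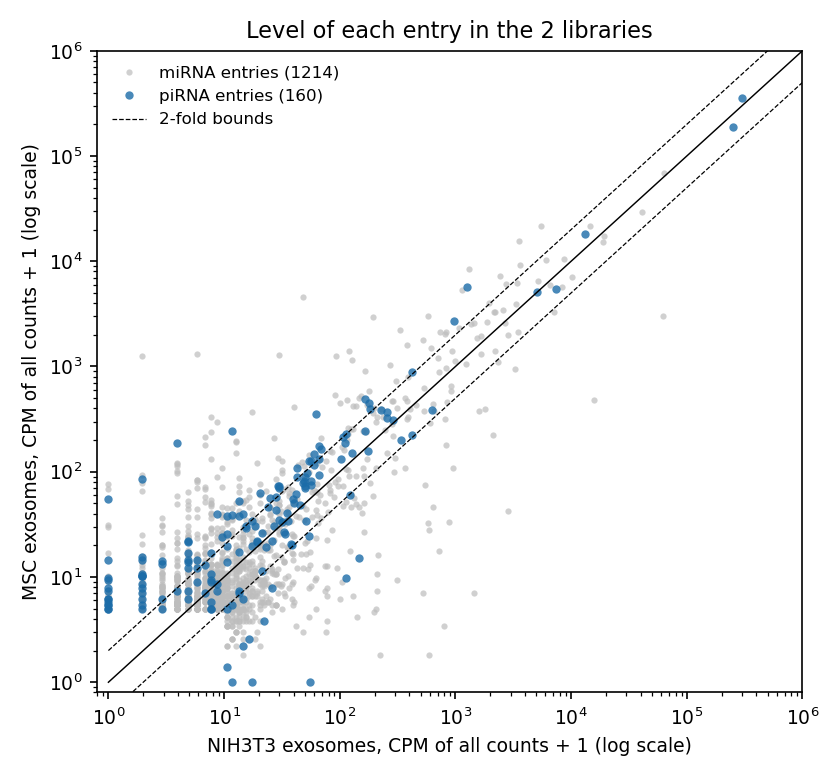
Level of each of the 160 piRNA entries (blue) and 1214 miRNA entries (grey), with CPM + 1 in NIH3T3 exosomes on the x axis and in MSC exosomes on the y axis, both on log scales, the line of equal level (solid) and the 2-fold bounds (dashed). The pair of mmu_piR_000620 entries lies at the upper right between the bounds, and the blue points that leave the bounds lie mostly above them, 49 against 13 among the entries at 10 CPM or more.

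The largest differences in favour of MSC exosomes came from a few names. mmu_piR_001256, listed on chromosome 11 (103244363 to 103244394), had 135 counts in the MSC and 0 in the NIH3T3 library. It was 18.7-fold higher when its count is set against 3 counts, the limit that a count of 0 allows. That figure leaves out the counting error of the 135, and the exact interval, which includes it, began lower, at a log2 ratio of 3.90. mmu_piR_017289, of 31 bases, had 815 counts against 17 over 8 positions, a 19.9-fold higher level (log2 ratio 4.23, 3.63 to 5.10). Of its 8 entries 5 reached 10 CPM and were called higher, beside the 30.5% of all entries called higher. All 5 reached it through MSC exosomes alone, so that their being called higher is in part set by that limit. The entries with the most counts were those on chromosome 6 at 128804704 (185 CPM in MSC and 2.89 CPM in NIH3T3 exosomes, the latter from 3 counts; 5.58, 4.44 to 8.28) and on chromosome 16 (210 counts against 1, 5.44, 3.95 to 11.76). Without these 2 the other 6 entries summed to 56.8 and 12.5 CPM (2.09, 1.36 to 3.12). Of those 6, the entry on chromosome 3 at 46956408 had 36 counts against 1 (2.97) and that on chromosome 6 at 128764513 had 34 against 1 (2.89). An entry on chromosome 3 at 89341683 had 10 counts and 7, below 10 CPM in both libraries, and a negative ratio (-0.63, -2.30 to 0.88).

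mmu_piR_015668, listed on chromosome 4, had 873 counts in the MSC and 63 in the NIH3T3 library, a 5.75-fold higher level in MSC exosomes. Of the others among the 10 largest ratios, mmu_piR_003758 on chromosome 12 had 33 against 2 (2.28, 0.81 to 5.88) and mmu_piR_002490 on chromosome 6 at 145890085 had 31 against 2 (2.19, 0.71 to 5.79). Like mmu_piR_001256, these entries reached 10 CPM through MSC exosomes alone. The remaining pair were entries of mmu_piR_000691, described below.

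The 10 largest differences in the other direction were all in entries with at most 152 counts in either library. Of these, only the mmu_piR_003704 entry on chromosome 2 reached 10 CPM in both libraries (14.0 CPM in MSC and 147 CPM in NIH3T3 exosomes). The others reached it through NIH3T3 exosomes alone, so that their being called lower is in part set by that limit. mmu_piR_030208, listed on chromosome 5 (150072436 to 150072466), had 0 counts in the MSC and 56 in the NIH3T3 library. It was 45-fold lower in MSC exosomes when the 56 are set against the limit of 3 counts. The exact interval, which includes the counting error of the 56, ended nearer to no difference, at -5.15. mmu_piR_035687 (0 against 17 counts) and mmu_piR_014958 (0 against 11) were 13.7-fold and 8.84-fold lower when set against 3 counts. Their exact intervals ended nearer to no difference, at -3.31 and -2.60. mmu_piR_024744, listed on chromosome 17 (66099819 to 66099850), had 22 counts against 117 (-3.54, -4.41 to -3.01). Its neighbours on the same strand, mmu_piR_015769 (13 against 4, 0.35, -1.26 to 2.50) and mmu_piR_010808 (13 against 1, 1.66, -0.30 to 7.84), were below 10 CPM, with intervals that span 0. mmu_piR_003704, of 26 bases, had 62 and 185 counts over 3 positions (-2.80, -3.29 to -2.42). The entry on chromosome 2 had 35 against 152 (-3.30) and that on chromosome 19 had 17 against 26 (-1.74), and the entry on chromosome 7, below 10 CPM in both libraries, had 10 against 7 (-0.63, -2.30 to 0.88). The others were mmu_piR_007491 (3 against 14), mmu_piR_015483 (4 against 16), mmu_piR_007582 on chromosome 18 (7 against 22) and mmu_piR_024525 (13 against 14).

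The positions of 1 name often had different ratios. For 14 of the 28 names with several positions every entry had a ratio above 0, for 3 every entry was below 0, and for 11 both signs occurred. Entries below 10 CPM were included here. Of the 11, only mmu_piR_000620, mmu_piR_022097, mmu_piR_000616 and mmu_piR_000159 had entries of both signs with intervals that exclude 0. For the rest at least 1 of the signs lay within counting error, as for mmu_piR_001570 (-0.13, -0.39 to 0.13, and 0.08, -0.11 to 0.28). The entries lay within 1 log2 unit of each other for 13 names. mmu_piR_000622 had entries on chromosomes 2, 3, 18 and X that had 173, 573, 179 and 316 counts in MSC and 30, 117, 30 and 58 in NIH3T3 exosomes. All 4 ratios lay between 1.02 and 1.28. mmu_piR_003040 had a narrow range at a lower ratio, with 1427 and 467 counts over 4 positions and entries from 0.10 to 0.48. mmu_piR_002490, of 30 bases, was spread over 11 positions on 8 chromosomes with 820 and 207 counts. Of its 11 entries 4 were called higher and 7 were within 2-fold, from -0.23 to 2.19, beside the 30.5% of all entries called higher. Of the 4, those on chromosome 11 (40 against 7 counts) and on chromosome 6 at 145890085 (31 against 2) reached 10 CPM through MSC exosomes alone.

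**Figure D3:**
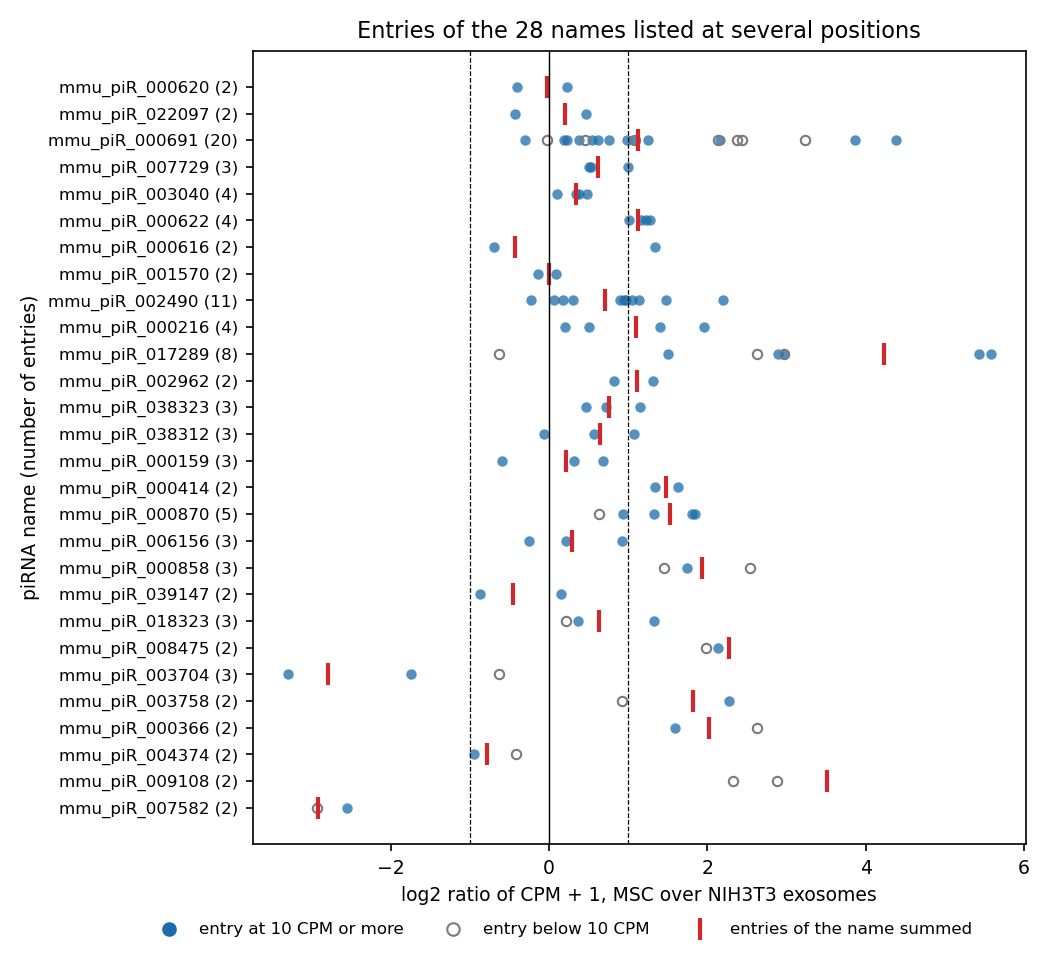
Log2 ratio (CPM + 1, MSC over NIH3T3 exosomes) of each entry of the 28 piRNA names that have several positions, ordered by MSC counts, with filled points for entries at 10 CPM or more, open points for entries below it, a red mark for the summed name, and dashed lines at the 2-fold bounds. Entries of mmu_piR_000622 lie close together above 1, while those of mmu_piR_000691 run from -0.30 to 4.39 and those of mmu_piR_017289 from -0.63 to 5.58.

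mmu_piR_000691, of 26 bases, had the most positions, 20 in all, with 2451 counts in MSC and 467 in NIH3T3 exosomes. The 18 on chromosome 8 held 2411 and 466 of these, with a median of 49.5 counts per entry in the MSC and 10 in the NIH3T3 library. Their sum was 2.15-fold higher in MSC exosomes (log2 ratio 1.10, 0.96 to 1.25). Of the 13 that reached 10 CPM, 5 were called higher, 8 were within 2-fold and 0 were lower, beside the 30.5% of all entries called higher. Of the 5, 4 reached 10 CPM through MSC exosomes alone. A single entry, at 126463844, had 606 counts in MSC but 11 in NIH3T3 exosomes (4.39, 3.66 to 5.52), and without it the other 17 were at 0.72 (0.57 to 0.87), below the 2-fold bound. The entry with the most counts, at 126484247, had 953 and 234, and without it the sum was at 1.38. The entry at 126435045 had 34 counts against 0 and was 4.70-fold higher when set against the limit of 3 counts. Its exact interval began lower, at a log2 ratio of 1.86. By its spacing this array matched the 5S rRNA genes given above, of which 18 of 45 carried an entry.

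**Figure D4:**
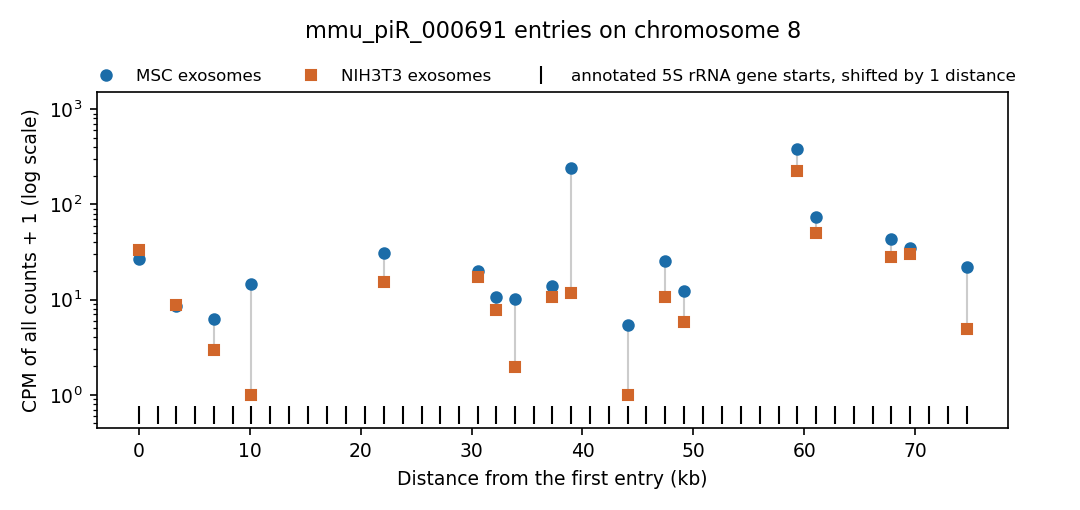
Levels (CPM + 1, log scale) of the 18 mmu_piR_000691 entries listed on chromosome 8 in MSC (circles) and NIH3T3 exosomes (squares) against the distance in kb from the first entry, with ticks for the starts of the 45 annotated 5S rRNA genes of mm10 shifted by 1 common distance. Each entry sits on a tick, and the pair of points is farthest apart at the entry with 606 counts in MSC and 11 in NIH3T3 exosomes and at those with 0 counts in NIH3T3 exosomes.

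Many entries lay side by side, so they were not independent measurements. On the same strand 32 pairs of entries overlapped, involving 49 entries, with a median of 18 shared bases, and 0 pairs overlapped on opposite strands. The log2 ratios differed by less than 1 for 24 of the 32 pairs. No such count was made for entries that do not overlap, so the part of overlap in this was not tested. When neighbours at most 1000 bases apart were joined, 70 entries fell into 24 groups. The same names recurred together in different groups. There were 14 pairs of names found side by side at 2 or more places, and for 13 of these the distance between their 5′ ends was identical at every place. mmu_piR_000216 and mmu_piR_000870 lay 11 bases apart on chromosomes 3, 9, 16 and 17, for example, and mmu_piR_000366 and mmu_piR_022097 lay 25 bases apart on chromosomes 6 and 17. The exception was mmu_piR_000620 and mmu_piR_000622, 354 bases apart on chromosome 3 and 360 on chromosome 18.

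The names linked to mmu_piR_000620 in this way were mmu_piR_000616, mmu_piR_000622, mmu_piR_001570 and mmu_piR_002643, with 11 entries on 4 chromosomes. On chromosome 3 all 5 names lay within 400 bases. Their levels there spanned a wide range, from 266 against 43 counts for mmu_piR_000616 (1.34) to the counts of mmu_piR_000620 given above. mmu_piR_001570, which starts 1 base before mmu_piR_000616 and shares 29 bases with it, had 769 and 301 counts (0.08). On chromosome 2 the same pair had 960 and 643 counts for mmu_piR_000616 (-0.69) and 395 and 180 for mmu_piR_001570 (-0.13). The ratios of this overlapping pair thus differed by more than 2-fold on chromosome 3 and by less on chromosome 2, and mmu_piR_000616 was called higher on chromosome 3 but not on chromosome 2.

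A second run, on the plus strand of chromosome 17, held 11 entries of different names within 5203 bases from 39451052, with 5163 counts in MSC and 1100 in NIH3T3 exosomes. Of the 10 that reached 10 CPM, 5 were higher in MSC exosomes, 4 were within 2-fold and 1 was lower. Of all entries, 30.5% were called higher and 27.4% lower. Several entries of the run overlap, such as mmu_piR_000619 and mmu_piR_005355, so the calls are not independent. The most abundant were mmu_piR_000619 and mmu_piR_000639, given above, followed by mmu_piR_004567 (408 against 71 counts, 1.24) and mmu_piR_000536 (315 against 55, 1.23). mmu_piR_000414 had 180 against 29 counts here (1.33) and 155 against 20 on chromosome 16 (1.63). The last entry of the run, mmu_piR_000958, went against the others, with 149 counts against 127 (-1.03, -1.39 to -0.69). Summed, the run was at 0.96 (0.87 to 1.06), and at 1.10 without mmu_piR_000958.

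**Figure D5:**
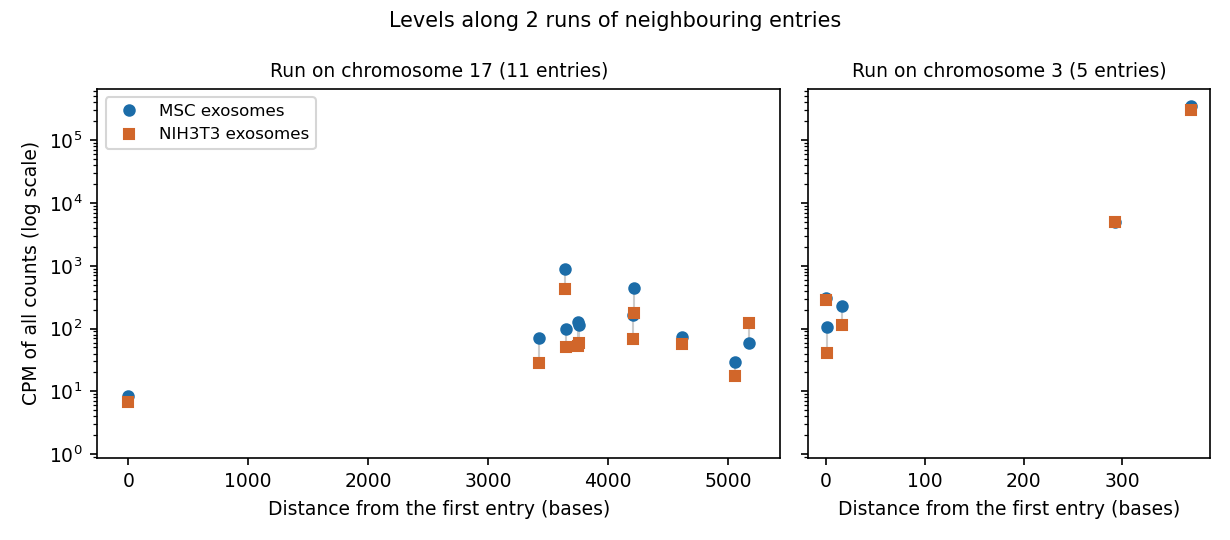
Levels (CPM, log scale) of the neighbouring entries listed on chromosome 17 (left, 11 entries) and chromosome 3 (right, 5 entries) in MSC (circles) and NIH3T3 exosomes (squares) against the distance in bases from the first entry. On chromosome 17 the circles lie above the squares except at the last entry, mmu_piR_000958, and on chromosome 3 the last entry, mmu_piR_000620, is the highest in both libraries.

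Another linked set held mmu_piR_000216, mmu_piR_000870, mmu_piR_003040, mmu_piR_006156, mmu_piR_007729 and mmu_piR_038312, with 22 entries on 6 chromosomes. It had 4627 counts in the MSC and 1249 in the NIH3T3 library (0.62). mmu_piR_007729 had 1469 and 396 of these (0.62), and mmu_piR_000216 had 818 and 158 (1.10). In this set mmu_piR_000870 had 241 and 34 counts over 5 positions (1.53), mmu_piR_038312 had 457 and 121 over 3 (0.64), and mmu_piR_006156 had 215 and 73 over 3 (0.29). The set of mmu_piR_002490 with mmu_piR_000585, mmu_piR_018323 and mmu_piR_038323 had 18 entries on 10 chromosomes with 1993 and 517 counts (0.68). In it mmu_piR_000585 had 607 and 170 counts, mmu_piR_038323 was at 188 and 111 CPM over 3 positions (0.76), and mmu_piR_018323 had 95 and 25 counts over 3 (0.64). mmu_piR_000634, mmu_piR_002962 and mmu_piR_005109 together had 1590 and 300 counts (1.13), of which the 2 positions of mmu_piR_002962 held 587 and 112 (1.11). mmu_piR_003758 and mmu_piR_008475, 3 bases apart at both of their places, had 117 and 10 counts (2.17).

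The other names with several positions had few counts. mmu_piR_000159 was at 159 and 137 CPM over 3 positions (0.21), and mmu_piR_039147, which overlaps it, had 100 and 57 counts over 2 (-0.45). mmu_piR_000858 had 118 and 12 counts over 3 positions (1.94), and mmu_piR_000366 had 47 and 4 counts over 2 (2.03). mmu_piR_004374 had 27 and 20 (-0.78) and mmu_piR_007582 had 8 and 32 (-2.92). Both entries of mmu_piR_009108 were below 10 CPM, with 26 counts against 0 in all. When entries were summed by name, 66 of the 82 names reached 10 CPM, of which 26 were called higher, 12 lower and 28 neither. The background, taken over all 899 single entries at that level, was 30.5% higher and 27.4% lower.

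Marker miRNAs were read from the same table. All 7 mesenchymal miRNAs looked for were listed, with a summed level of 102536 CPM in MSC and 77397 CPM in NIH3T3 exosomes. Most of this was the shared entry of miR-199a-3p and miR-199b-3p, at 68901 and 64108 CPM. miR-143-3p stood at 15451 and 3558 CPM, and only miR-21a-5p was lower in MSC exosomes, at 2574 and 2665 CPM. Of 17 germ cell miRNAs 10 were listed, in 13 entries that summed to 318 CPM in MSC and 67.5 CPM in NIH3T3 exosomes. Most of the former was miR-202-3p, a gonadal miRNA, with 591 counts in MSC and 7 in NIH3T3 exosomes, and the other 12 entries had 1 to 60 counts. The blood cell list had 3 of 4 markers listed, at 92.8 CPM in MSC and 178 CPM in NIH3T3 exosomes. Its members differed in direction. miR-142a-3p stood at 48.4 CPM in MSC and 137 CPM in NIH3T3 exosomes, and miR-223-3p at 33.6 and 16.4 CPM. The pluripotent list had 4 of 9, at 60.0 and 33.7 CPM, in entries of at most 45 counts that also went both ways. The liver or serum list, which shares miR-451a with the blood cell list, had 4 of 4, at 14520 and 12151 CPM. Most of this was miR-16-5p, at 10582.5 CPM in MSC and 8735.5 CPM in NIH3T3 exosomes, followed by miR-122-5p at 3903 and 3361 CPM. miR-451a (10.8 and 25.1 CPM) and miR-486a-5p (24.4 and 28.9 CPM) were low. No listed marker was at 0 in either library, which was nearly set by the listing. Of all 1214 miRNA entries, 0 were at 0 counts in the MSC and 18 in the NIH3T3 library. The levels of the markers that were not listed are not known. The part that these cell or serum sources have in the piRNA levels was not tested.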

How the data were processed

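Exosomal RNA from 1 MSC and 1 NIH3T3 culture was sequenced from QIAseq miRNA libraries, per the labels' protocols, which also speak of a miRNA microarray. Per the file headers the authors deposited raw counts, which were whole numbers, and a log2 normalized column. The deposited log2 values were those of raw counts multiplied by 0.655 (MSC) and 1.84 (NIH3T3). The aligner, the counter, the use of molecular identifiers and the origin of the factors are not stated in the sources used here. The build mm10 was named, per the submitters' processing notes. No entry was listed with fewer than 10 raw counts in both libraries, and 10 is 4.00 CPM in the MSC and 9.64 CPM in the NIH3T3 library, so the minimum admitted lower levels in the MSC library. A count of 0 allowed up to 3 counts, 1.20 CPM in the MSC and 2.89 CPM in the NIH3T3 library.

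Counts were scaled by all counts of a library. Ratios used 1 CPM added to both, and intervals are exact conditional (Clopper-Pearson) intervals at 95%, without that constant. The arithmetic of the ratios and calls was checked on simulated counts, which says nothing of the spread between cultures. Entries named are the top 10 of each library by level, the 10 extreme ratios in either direction at 10 CPM or more, and names with several positions. Neighbours are named where a sentence concerns them. A planned grouping by annotated RNA class was not made, since the build of the listed positions was not certain. The sequences of the matched rRNA genes are not reported here. The members, lists and rules were chosen with earlier results of these data known. Computation used Python 3.11.15, pandas 2.3.3, numpy 2.4.6 and scipy 1.17.1.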

Additional observations from a re-analysis of the deposited data

How the results depend on the processing

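The summed log2 ratio was 0.026 scaled by miRNA counts, -0.21 with the deposited factors, -0.35 scaled without the 10 most abundant entries of each library, and -0.15 without the most abundant piRNA entry, when the piRNA share was 36.5% in MSC and 40.6% in NIH3T3 exosomes. The median ratio was 0.74, 0.48 and 0.29 under these 3 scalings, and 0.58 centred. The counts of calls moved by over 1.5 times in the following cases. There were 21 lower with the deposited factors, and 27 higher and 23 lower without the 10 most abundant entries. A floor of 100 CPM gave 18 higher and 3 lower, and 10 CPM in the mean of both libraries gave 7 lower. The share of all entries called was not taken at these floors, so these counts have no background beside them. The median was 0.76 at 100 CPM, 0.86 with no floor, 0.65 at 10 CPM in the mean, 0.74 with 0.1 CPM added and 0.65 with 5 CPM added. Chosen after seeing the data were 10 CPM in both libraries (28 higher, 3 lower, median 0.55), entries summed by name (26 higher, 0.64), leaving out mmu_piR_000691 (median 0.72) and leaving out mmu_piR_000620 from counts and totals (shares of 10.4% and 7.74%, summed ratio 0.43). Counting identical entries of a name once changed nothing, since there were none. Leaving out entries in annotated small RNA genes was not run, because no listed position fell in such a gene and their build was not certain. No paired analysis was possible because each group has 1 library. Depth limits the low entries: 13 piRNA entries had 0 counts in the NIH3T3 library and 3 in the MSC library.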
